A study of Mus musculus with 3 samples.

Results

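The 10 piRNA pathway genes described here are Piwil1, Piwil2, Piwil4, Ddx4, Mael, Tdrd1, Tdrd5, Tdrd6, Tdrd9 and Mov10l1. They were taken by symbol from the 55450 genes of the count tables, all 10 were found once, and their levels were followed through the germ stages and somatic cells of 3 mouse testis libraries. Single cells were captured with 10x Genomics 3' chemistry, which counts each transcript by a unique molecular identifier (UMI). All 3 libraries came from mice given busulfan, a DNA alkylating drug that depletes germ cells. The mice of the first library received PBS, those of the second blood exosomes of wild-type mice (EXO) and those of the third blood exosomes of mice with a disturbed gut microbiota (dEXO). Each group is a single library, and the spread between animals cannot be measured. No p-value is given, and every interval in the text is a 95% interval for counting error alone.

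Germ cells use piRNAs, short RNAs carried by PIWI proteins, to silence transposons and to regulate transcripts of meiotic and haploid cells. In the mouse, Piwil4 and Piwil2 act with piRNAs of the prenatal germ line, and Piwil2 and Piwil1 carry the abundant piRNAs of pachytene spermatocytes. Precursor RNAs are bound by the helicase Mov10l1. Further processing takes place in perinuclear granules built from Tudor domain proteins together with the helicase Ddx4 and with Mael.

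Barcodes numbered 5514 in PBS, 10228 in EXO and 9760 in dEXO, with total UMIs of 97253862, 91787154 and 96655663. After filters, 5267, 9860 and 9119 cells remained, with medians of 8398, 3256.5 and 3104 UMIs. Each pair of libraries shared 19 barcodes. Cells were clustered without the 10 genes and without 22 further pathway genes, so that these genes did not themselves form the classes. Other genes with a like course were not left out, so the classes are not independent of the members. Class names rest on markers and mean cells like that type; "intermediate spermatocytes" are clusters g10 and g14, which scored highest for early spermatocyte markers but scored higher for late spermatocyte markers than for those of differentiating spermatogonia. This class was set up after the clusters had been seen. PBS was thin in meiosis: it had 56 undifferentiated and 28 differentiating spermatogonia, 17 early, 7 intermediate and 24 late spermatocytes, and 56 round spermatids. The same classes held 72, 75, 186, 78, 188 and 264 cells in EXO and 197, 106, 339, 187, 308 and 412 cells in dEXO. Elongating spermatids numbered 8, 20 and 55. A class lying between late spermatocytes and round spermatids numbered 10, 197 and 351. The labels give testis as the tissue, and germ, Sertoli-like and Leydig-like clusters carried their defining markers, although the extraction text in the labels names another organ.

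The DNA before the transcription start of these genes is shown for the 3 in which a Myb sequence was found, because Myb proteins act on this pathway. Tdrd1 and Mael are shown beside them as members with no match and with different courses through the stages. RefSeq start sites on GRCm38.p6 were found for 8 of the 10 genes, all except Piwil2 and Tdrd6. The 250 bases before each start were searched on both strands for forms of the sequence that Myb proteins bind. The letters searched were CAACTG and, as the second form, CAACGG. The third form was TAACTG, while the last form was TAACGG. The Myb protein Mybl1 is the known activator of pachytene piRNA genes. Capitals mark a match. Bases that the GENCODE M21 gene model places in an exon are left out of the longer stretches.
Piwil1, chr5:128735996-128736173, plus strand: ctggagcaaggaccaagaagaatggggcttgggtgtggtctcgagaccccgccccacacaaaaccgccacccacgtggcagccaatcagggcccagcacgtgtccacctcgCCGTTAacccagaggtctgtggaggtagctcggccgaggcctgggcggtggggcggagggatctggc
Piwil1 second match, chr5:128736161-128736190, plus strand: ggagggatctggCAGTTGgggctgttagca
Tdrd5, chr1:156303349-156303378, minus strand: cgtcccggacctgcggcgcgCAACGGcagc
Mov10l1, chr15:88982744-88982908, plus strand: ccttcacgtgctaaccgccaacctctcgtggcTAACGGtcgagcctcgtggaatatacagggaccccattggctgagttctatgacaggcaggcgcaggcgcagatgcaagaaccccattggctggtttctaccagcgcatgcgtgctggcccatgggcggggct
Tdrd1, chr19:56825959-56826208, plus strand: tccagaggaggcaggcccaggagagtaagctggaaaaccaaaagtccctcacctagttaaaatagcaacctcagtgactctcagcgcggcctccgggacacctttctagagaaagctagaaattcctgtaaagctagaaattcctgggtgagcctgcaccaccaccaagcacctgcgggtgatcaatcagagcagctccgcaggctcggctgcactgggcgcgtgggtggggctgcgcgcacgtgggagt
Mael, chr1:166238748-166238994, minus strand: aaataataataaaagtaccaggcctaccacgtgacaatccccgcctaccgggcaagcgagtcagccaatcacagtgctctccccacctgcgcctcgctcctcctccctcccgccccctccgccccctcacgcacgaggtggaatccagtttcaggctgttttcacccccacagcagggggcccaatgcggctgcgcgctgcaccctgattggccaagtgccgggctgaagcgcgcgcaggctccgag
Of the 8 genes, 3 held at least 1 match (37.5%): Piwil1, Tdrd5 and Mov10l1. The matches began 139 and 73 bases before the Piwil1 start, 10 bases before that of Tdrd5 and 218 bases before that of Mov10l1. Among all 32851 mouse promoters of the same length 23.7% held a match, as did 3 of 15 other pathway genes. A match describes these letters only. The second Piwil1 match and the Tdrd5 match lie in an exon of the GENCODE gene model. The RefSeq start of Piwil1 lies 33722 bases from the GENCODE start and that of Tdrd5 316 bases from it, with all 250 searched bases of Tdrd5 in an exon.

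Piwil1 (ENSMUSG00000029423, chromosome 5, 128702524 to 128755474 on GRCm38) encodes MIWI, the PIWI protein of pachytene and haploid germ cells. Its level in counts per 1000000 UMIs of the class (CPM) was 1589 in PBS, 1622 in EXO and 1550 in dEXO intermediate spermatocytes, where the PBS value rests on 7 cells. The 3 libraries were close together there. In early spermatocytes it was 0, 16.6 and 21.5 CPM in the same order, the PBS value being 0 of 17 cells. The step into the intermediate class was thus 97.5-fold in EXO (64.0 to 156) and 72.1-fold in dEXO (54.4 to 97.8). A Piwil1 UMI was found in 97.4% of EXO and 97.3% of dEXO intermediate cells, against 11.3% and 12.7% of early spermatocytes. After each cell had been thinned to 1000 UMIs these shares were 81.8% and 72.4% against 2.10% and 2.27%. In late spermatocytes Piwil1 was at 646 CPM in PBS (24 cells), 165 in EXO and 203 in dEXO, and in round spermatids at 3.59, 7.08 and 12.1 CPM. The 24 PBS late spermatocytes had a median of 1241 UMIs but 655866 UMIs in total. Their CPM values, here and for the other members, thus rest mainly on a few deep cells. Undifferentiated spermatogonia had 13.4, 17.8 and 21.8 CPM. Stromal cells had 2.26, 13.7 and 33.7 CPM and Sertoli cells 3.74, 19.5 and 43.9 CPM. The values outside spermatocytes in EXO and dEXO lay within the range seen in somatic cells of the same library. In EXO, undifferentiated spermatogonia were above stromal cells and below Sertoli cells.

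Piwil2 (ENSMUSG00000033644, chromosome 14, 70372477 to 70429383) encodes MILI, which is present from spermatogonia onwards. It was at 121, 130 and 113 CPM in undifferentiated spermatogonia of PBS, EXO and dEXO, well above its 0.39, 0.95 and 2.34 CPM in Leydig cells. In intermediate spermatocytes it was at 124, 230 and 226 CPM, a 2.98-fold step from early spermatocytes in EXO (2.27 to 3.92) and 2.75-fold in dEXO (2.29 to 3.30). Late spermatocytes had 44.2, 27.9 and 31.6 CPM, and round spermatids 4.94, 8.82 and 8.27 CPM. Piwil2 was thus present before meiosis, highest in the intermediate class in EXO and dEXO, and low in haploid cells.

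Piwil4 (ENSMUSG00000036912, chromosome 9, 14696230 to 14740733) encodes MIWI2, a nuclear PIWI protein best known from prenatal germ cells. Undifferentiated spermatogonia had 9 UMIs in PBS, 10 in EXO and 18 in dEXO, which gave 4.83, 7.12 and 4.67 CPM. Its UMIs lay in 6 of 56, 7 of 72 and 17 of 197 cells. From early to late spermatocytes no Piwil4 UMI was counted in any library, nor in round spermatids. In the dEXO early spermatocytes the upper limit of 3 counts set for a count of 0 is 1.32 CPM. Among the germ stages Piwil4 alone had its UMIs confined to spermatogonia at this depth, with 0, 1 and 2 in differentiating spermatogonia. The exception was 1 UMI in the dEXO class between late spermatocytes and round spermatids. Cluster c1 of the Leydig cells, at 3.41, 3.82 and 5.16 CPM, lay within the interval of undifferentiated spermatogonia in each library. These intervals were 2.21 to 9.18, 3.41 to 13.1 and 2.77 to 7.39 CPM, so spermatogonia did not stand clear of somatic cells.

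Mov10l1 (ENSMUSG00000015365, chromosome 15, 88982909 to 89055152) encodes the RNA helicase that starts the processing of piRNA precursors. Its level was 234, 251 and 231 CPM in undifferentiated spermatogonia of PBS, EXO and dEXO and 330, 281 and 262 CPM in differentiating spermatogonia. Early spermatocytes had 282, 223 and 241 CPM, and intermediate spermatocytes 175, 232 and 181 CPM. In EXO the interval of differentiating spermatogonia lay above that of early spermatocytes, while those of undifferentiated spermatogonia and intermediate spermatocytes overlapped both. The drop came in late spermatocytes, with 45.7, 26.5 and 27.7 CPM, and round spermatids had 0.90, 3.27 and 5.26 CPM.

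Ddx4 (ENSMUSG00000021758, chromosome 13, 112598333 to 112652475) encodes the VASA helicase, a general germ cell marker. It was the flattest of the members. It was at 281, 307 and 290 CPM in undifferentiated spermatogonia, at 488, 500 and 503 CPM in intermediate spermatocytes and at 256, 209 and 264 CPM in round spermatids. Its step into the intermediate class was 1.86-fold in EXO (1.58 to 2.19) and 1.69-fold in dEXO (1.52 to 1.87). Elongating spermatids still had 170, 141 and 133 CPM.

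Mael (ENSMUSG00000040629, chromosome 1, 166201201 to 166238747) encodes maelstrom, a granule protein needed for transposon silencing. Its level was 185, 171 and 195 CPM in undifferentiated spermatogonia and 208, 208 and 220 CPM in early spermatocytes. It was highest in late spermatocytes, with 918, 830 and 782 CPM. In PBS, on 24 cells whose UMIs came mainly from a few deep ones, Tdrd6 was also highest there. In EXO and dEXO Mael was the 1 member with its highest level there. Round spermatids kept 587, 553 and 575 CPM and elongating spermatids 410, 309 and 343 CPM. Mael thus stayed high in haploid cells, where Piwil1, Piwil2 and Mov10l1 were low.

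The 4 Tudor genes were all highest in intermediate spermatocytes in EXO and dEXO. Tdrd1 (ENSMUSG00000025081, chromosome 19, 56826209 to 56870012), a partner of MILI, was at 94.0, 79.0 and 79.7 CPM in undifferentiated spermatogonia of PBS, EXO and dEXO. It was lower in differentiating spermatogonia, with 52.9, 44.7 and 44.9 CPM, and lower again in early spermatocytes, with 30.6, 24.2 and 20.6 CPM. In intermediate spermatocytes it was at 354, 475 and 369 CPM, 19.7-fold above the early class in EXO (13.6 to 29.4) and 17.9-fold in dEXO (13.3 to 24.7). Tdrd1 was thus lowest before the intermediate class in early spermatocytes of all 3 libraries, with 17 and 7 cells behind the PBS values.

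Tdrd5 (ENSMUSG00000060985, chromosome 1, 156255296 to 156303664), which is needed for processing of pachytene piRNA precursors, followed the same course at a lower start. It was at 24.2, 29.2 and 27.3 CPM in undifferentiated spermatogonia and at 2.18, 1.51 and 3.95 CPM in early spermatocytes, the latter on 1, 2 and 9 UMIs. Intermediate spermatocytes had 204, 343 and 287 CPM, and round spermatids 1.12, 1.96 and 1.85 CPM. The ratio of intermediate to early spermatocytes was 72.8 in dEXO (38.0 to 160). In EXO the 2 UMIs of the early class leave the ratio between 61.9 and 1888.

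Tdrd6 (ENSMUSG00000040140, chromosome 17, 43615335 to 43630299) organises the chromatoid body, the granule of haploid cells. It was at 2.15, 3.56 and 10.6 CPM in undifferentiated spermatogonia and reached 259, 646 and 503 CPM in intermediate spermatocytes. Unlike Piwil1 and Tdrd5 it remained at 284, 236 and 289 CPM in late spermatocytes and at 113, 98.5 and 148 CPM in round spermatids.

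Tdrd9 (ENSMUSG00000054003, chromosome 12, 111971559 to 112068854), a Tudor protein with a helicase domain, was at 82.2, 81.1 and 82.1 CPM in undifferentiated spermatogonia. It was at 142, 301 and 248 CPM in intermediate spermatocytes and at 16.8, 23.2 and 26.2 CPM in round spermatids. Round spermatids were uneven for this gene. Cluster g1, a shallow cluster with a median of 1365 UMIs, had 98.3, 272 and 206 CPM, whereas the deeper round spermatid cluster g6 had 15.6, 16.7 and 19.5 CPM. The shallow cluster g5, between late spermatocytes and round spermatids, had 250 CPM in EXO and 221 in dEXO. The protein-coding gene Rd3l lies on the opposite strand within Tdrd9. No source used here says whether counting used strand, so reads from Rd3l cannot be told apart from those of Tdrd9. Piwil2, Piwil4, Tdrd5, Piwil1 and Mov10l1 also overlap small or non-coding gene models.

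**Figure D1:**
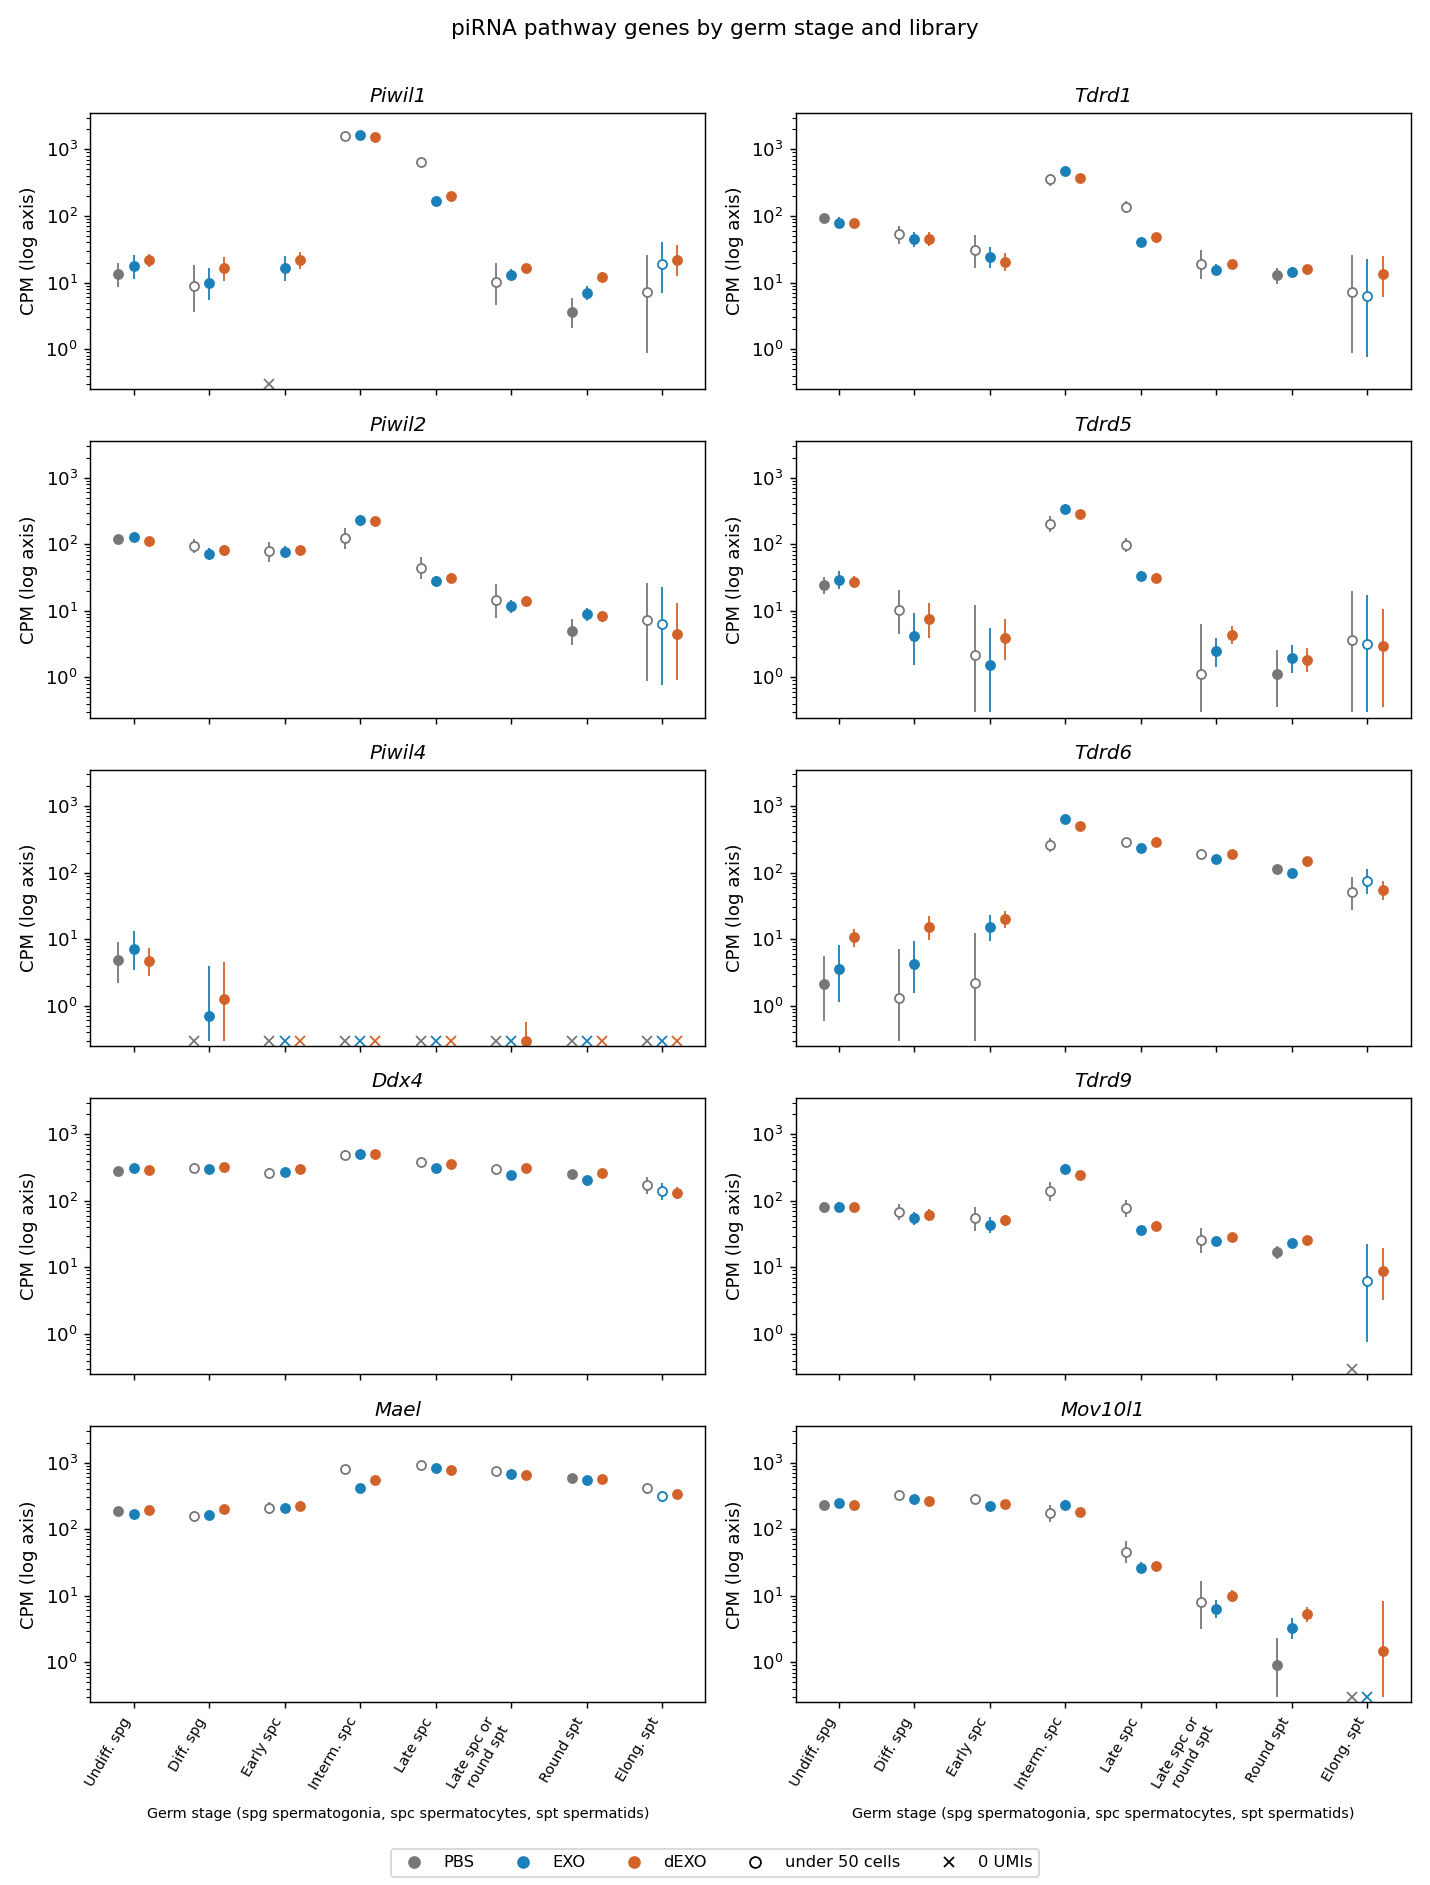
Level of each member in CPM (log axis) by germ stage for the PBS, EXO and dEXO libraries, with 95% Poisson intervals; open circles are classes under 50 cells and crosses are 0 UMIs. Piwil1 is at 16.6 CPM in early and 1622 CPM in intermediate spermatocytes of EXO, while Ddx4 stays between 133 and 503 CPM over the stages of dEXO.

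At the entry into the intermediate class most members were higher together. A step was called where the ratio of CPM between 2 neighbouring stages of 1 library was at least 1.5-fold and its counting interval excluded 1. A gene needed 50 UMIs over both stages. From early to intermediate spermatocytes 8 members were called higher and none lower in EXO, and the same numbers held in dEXO. The 8 were Piwil1, Piwil2, Ddx4, Mael, Tdrd1, Tdrd5, Tdrd6 and Tdrd9 in both libraries. Mov10l1 was counted but not called, at 1.04-fold in EXO (0.83 to 1.29) and 0.75-fold in dEXO (0.65 to 0.87), and Piwil4 had no UMI. Of all genes with enough UMIs, 29.7% were called higher at this step in EXO and 33.6% in dEXO. The median log2 ratio of the 9 members counted was 2.78 in EXO and 2.27 in dEXO, against -0.32 and -0.16 over all genes. In EXO, Piwil1, Tdrd1, Tdrd5 and Tdrd6 met the UMI limit through the intermediate class alone, as did Tdrd5 in dEXO. These had to differ, and the counts and medians are a description of the members.

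The number of members called depended on where the boundary between the classes was drawn. When cells with over 10% mitochondrial UMIs were left out and the rest clustered again, 118 of the 121 cells of cluster g14 were named early spermatocytes, and 2 members in EXO and 3 in dEXO were called higher. At a finer clustering 134 of the 151 cells of cluster g10 took that name, and the counts were 6 and 5. Shares of all genes called under these clusterings are not given here. Cluster by cluster, the contrast held for some members and not for others. In cluster g8, the deep early spermatocyte cluster with 201 cells with Prdm9 among its leading genes, Piwil1 was at 11.5 CPM over the 3 libraries, while g10 had 1486 CPM and g14 1717 CPM. Tdrd1 was at 20.5 CPM in g8, 365 CPM in g10 and 435 CPM in g14. Mael, at 224 CPM in g8, was at 700.2 CPM in g10 but at 273 CPM in g14. Ddx4 was at 299, 587 and 350.0 CPM in the same clusters, so both were raised mainly in g10.

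The clusters g10 and g14 differed in which members were high. Tdrd6 was at 190, 344 and 224 CPM in g10 of PBS, EXO and dEXO and at 636, 1103 and 939 CPM in g14. Mael ran the other way, with 927, 529 and 701 CPM in g10 against 141, 226 and 298 CPM in g14. Ddx4 was also lower in g14, with 235.6, 429 and 331 CPM against 535, 548 and 613 CPM. The PBS values rest on 4 and 3 cells. All 3 libraries showed these directions. Cluster g14 made up 28 of 78 intermediate cells in EXO and 90 of 187 in dEXO.

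**Figure D2:**
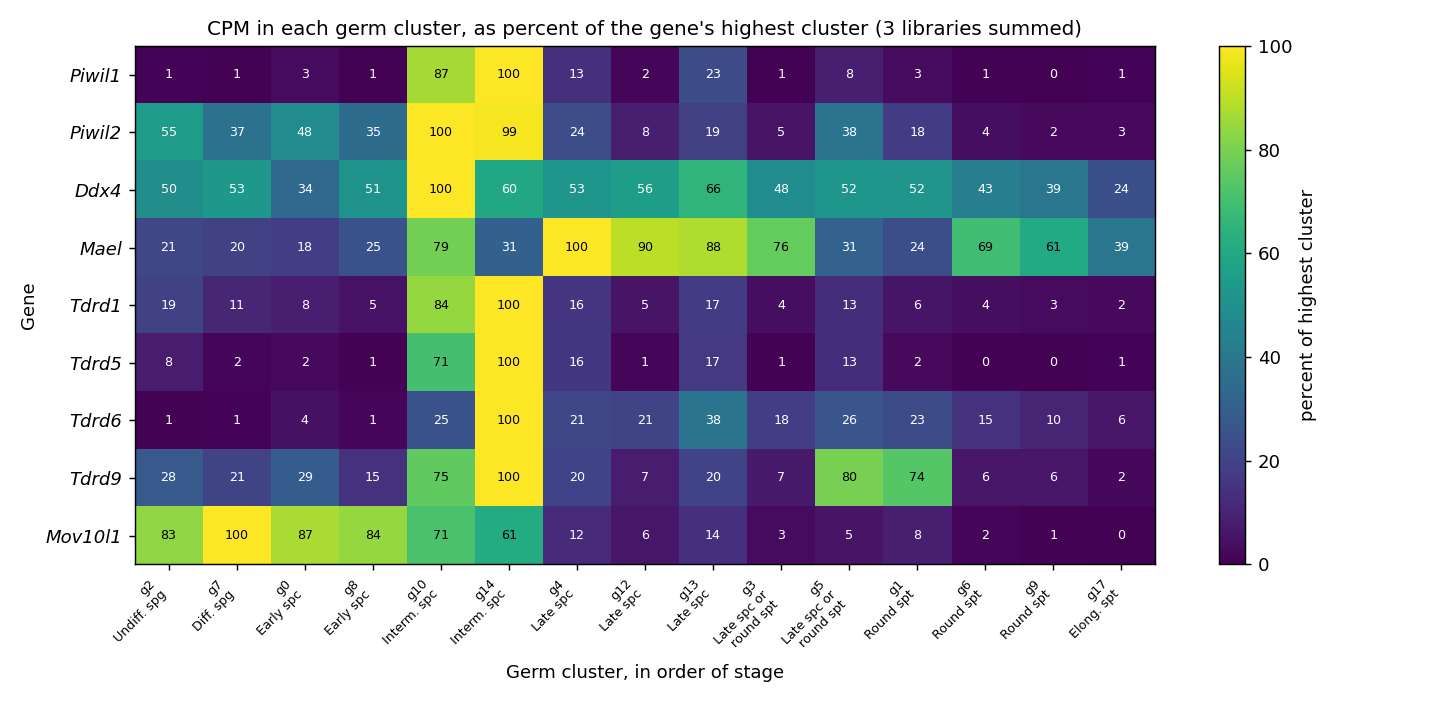
Level of 9 members in each germ cluster, summed over 3 libraries, as percent of that gene's highest cluster (colour and printed number); Piwil4 is left out for its few UMIs. Clusters g10 and g14 hold the highest value of 7 of the 9 genes shown, while Mael is highest in late spermatocyte cluster g4 and Mov10l1 in the differentiating spermatogonia of g7.

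From intermediate to late spermatocytes 8 of the 9 members counted were called lower in EXO and 7 in dEXO. Of all genes 38.7% were called lower at this step in EXO and 45.1% in dEXO. Piwil1 was 0.10-fold in EXO (0.09 to 0.11) and 0.13-fold in dEXO (0.12 to 0.14). Tdrd1, Tdrd5, Piwil2, Tdrd9 and Mov10l1 were between 0.09 and 0.17-fold in both libraries. Mael was 2.03-fold higher in EXO (1.77 to 2.35) and 1.44-fold in dEXO (1.34 to 1.54), where it missed the call. In EXO 28.1% of all genes were called higher at this step. From late spermatocytes to the class between them and round spermatids, Piwil1, Piwil2, Tdrd1, Tdrd5 and Mov10l1 were called lower in both libraries and Tdrd6 in dEXO, where 27.4% of all genes were called lower in EXO and 26.3% in dEXO. In the last step, to round spermatids, Mov10l1 was called lower in both libraries, Piwil1 and Tdrd6 in EXO, and Piwil2 and Tdrd5 in dEXO. There 22.6% of all genes were called lower in EXO and 23% in dEXO. Between undifferentiated and differentiating spermatogonia Tdrd1 was called lower in both libraries, Piwil2 in EXO and Tdrd5 in dEXO, and none was called higher. Tdrd5 was at 10.3, 4.25 and 7.59 CPM in differentiating spermatogonia, 0.28-fold of the earlier stage in dEXO (0.14 to 0.51), and it had too few UMIs to be counted in EXO. Its calls at this step in dEXO, after late spermatocytes in EXO and at the last step in dEXO met the UMI limit through the earlier stage alone. In that step 12.9% of all genes were called lower in EXO and 16% in dEXO. Between differentiating spermatogonia and early spermatocytes Tdrd1 alone was called, lower in both libraries, where 20.2% and 18.6% of all genes were called lower.

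The other genes of the pathway did not all follow the members. Of 15 further biogenesis and effector genes, 14 were counted in EXO and 15 in dEXO at the entry into the intermediate class. At this step 29.7% of all genes were called higher in EXO and 33.6% in dEXO, a share near that of this list. In each library 5 of the list were called higher. They included Pld6, the mitochondrial endonuclease of primary processing, Tdrd12, a partner of the PIWI slicing cycle, Gtsf1, a PIWI cofactor, and Exd1, while Tdrkh, which tethers PIWI proteins to mitochondria, and the chaperone Fkbp6 were called lower in both. The share of all genes called lower at this step is not given here, so the lower calls have no baseline. The median log2 ratio of that list was 0.26 in EXO and 0.08 in dEXO. Fkbp6 was at 556, 571 and 559 CPM in undifferentiated spermatogonia of PBS, EXO and dEXO and at 138, 72.8 and 137 CPM in intermediate spermatocytes. Gtsf1 went on to 1613, 1694 and 1685 CPM in round spermatids. Among 7 genes of piRNA gene transcription and piRNA-directed silencing, Mybl1 was at 85.2, 107 and 88.6 CPM in early and 117, 97.8 and 115 CPM in intermediate spermatocytes. Mybl1 was called higher from differentiating spermatogonia (7.80 CPM in EXO, 6.32 in dEXO) to early spermatocytes. The share of all genes called higher at that step is not given here, so this call has no baseline. Tex15, a meiotic gene also needed for silencing, was at 1948, 2893 and 2503 CPM in early spermatocytes and at 0, 32.6 and 17.4 CPM in intermediate ones.

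Across the 34 combinations of class and library with at least 50 cells, the member pairs with the highest Pearson r of log2(CPM + 1) were Ddx4 with Mael (0.95), Piwil2 with Tdrd9 (0.94) and Piwil2 with Mov10l1 (0.94). Piwil4 had r between -0.60 and -0.08 with the others, the weakest being near no relation. Its germ classes held few UMIs or none, so these values do not show an opposite course through the stages. The points take in both germ and somatic classes, so a high r need not mean a shared course through the germ stages. From intermediate to late spermatocytes of EXO, Ddx4 went from 500 to 312 CPM while Mael went from 408 to 830 CPM. The points also share libraries and depth, and the coefficients are descriptions. Among 14272 genes, those most like Piwil1 were Fbxo43 (0.93) and Mlc1 (0.90), those most like Piwil2 were Arl14epl and Stk31 (both 0.96), and those most like Mov10l1 were Stk31 (0.97) and Nsd2 (0.96). Stk31 is itself a gene of the pathway list. Tdrd6 was closest to Cfap70 (0.99) and Adam2 (0.98), Mael to Cox7b2 and Tcfl5 (both 0.98), and Ddx4 to Atf7ip2 and D1Pas1 (both 0.96). Tdrd9 was closest to Ankrd31 (0.95) and Tdrd12 (0.95), Tdrd5 to Tcam1 and Sgpp2 (both 0.92), and Tdrd1 to Cep70 (0.90) and Cep135 (0.89). For Piwil4 they were Fcor and Sema6b (both 0.88).

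The libraries were then compared within germ stages that held at least 50 cells in both, with the same call rule. The 3 comparisons share libraries and are not independent of each other. Only undifferentiated spermatogonia and round spermatids of PBS met the cell limit. Between EXO and PBS, 2 of 15 combinations of member and stage were called, between dEXO and PBS 5 of 16, and between dEXO and EXO 4 of 57, all of them higher in the library named first. Shares of all genes called are given beside the stages below.

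In undifferentiated spermatogonia most members counted were close together in the 3 libraries. Piwil4 and Tdrd6 had too few UMIs to be counted. Tdrd6, on 4, 5 and 41 UMIs, was 4.96-fold in dEXO against PBS (1.79 to 19.1) and 2.99-fold against EXO (1.18 to 9.70). Its 10.6 CPM in dEXO lay below the 26.1 CPM of dEXO stromal cells. Of 8 members counted, none was called between EXO and PBS, where 4.73% of all genes were, and none between dEXO and EXO, where 4.81% were. Ddx4 was 1.09-fold in EXO against PBS (0.96 to 1.24) and 1.03-fold in dEXO against PBS (0.93 to 1.15). Mov10l1 was 1.07-fold (0.93 to 1.24) and 0.99-fold (0.88 to 1.11) in the same comparisons, and Piwil2 1.08-fold (0.88 to 1.32) and 0.94-fold (0.80 to 1.11). These intervals exclude a change of 1.5-fold between these libraries. The 1 call between dEXO and PBS was Piwil1, at 1.62-fold (1.03 to 2.65) on 84 against 25 UMIs, where 4% of all genes were called higher. At 21.8 CPM it lay below the 33.7 CPM of dEXO stromal cells.

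In round spermatids Piwil1 was 1.97-fold higher in EXO than in PBS (1.13 to 3.65) and 3.38-fold higher in dEXO than in PBS (2.02 to 6.06). Piwil2 was 1.79-fold (1.10 to 3.01) and 1.68-fold (1.05 to 2.78) higher in the same comparisons. Of all genes 4.47% were called higher between EXO and PBS and 5.52% between dEXO and PBS. Between dEXO and PBS, Tdrd9 was also called at 1.56-fold (1.21 to 2.03), and Mov10l1 at 5.85-fold (2.18 to 22.1) on 68 against 4 UMIs. Mov10l1 met the UMI limit through dEXO alone, and Piwil1 met it through EXO alone in EXO against PBS, so these calls had to differ. In EXO and dEXO the levels of Mov10l1 and Piwil1 were below those of stromal cells in the same library. The dEXO level of Mov10l1 in round spermatids was 5.26 CPM, against 8.87 CPM in stromal and 2.56 CPM in Leydig cells, and that of Piwil1 was 12.1 CPM against 33.7 and 12.5 CPM. Piwil2, at 8.27 CPM in dEXO, stood above the 4.51 CPM of stromal cells, and Tdrd9, at 26.2 CPM, above their 8.22 CPM. In dEXO Sertoli cells, however, Piwil2 was higher, at 25.1 CPM, and Tdrd9 was at 23.1 CPM. The somatic levels moved in the same direction between libraries, and their part in the result was not tested. Of the members abundant at this stage, none was called against PBS. Mael was at 587, 553 and 575 CPM. Ddx4 was 0.82-fold in EXO (0.76 to 0.88) and 1.03-fold in dEXO (0.96 to 1.10), and Tdrd6 was 0.87-fold (0.78 to 0.97) and 1.30-fold (1.18 to 1.44). With germ clusters under a median of 2000 UMIs left out, the number of calls was 0 for EXO and 1 for dEXO against PBS, and with cells thinned to 1000 UMIs it was 0 in both.

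Between dEXO and EXO, round spermatids gave 3 calls among 8 members counted, where 5.80% of all genes were called higher. Tdrd6 was 1.5-fold higher in dEXO (1.39 to 1.63) on 1912 against 904 UMIs, Piwil1 1.71-fold (1.28 to 2.32) and Mov10l1 1.61-fold (1.03 to 2.56). Tdrd6 stood at 148 CPM in dEXO round spermatids and at 26.1 CPM in dEXO stromal cells. Within round spermatid cluster g6 the log2 ratio of Tdrd6 was 0.65 (0.50 to 0.79), and within g9 it was 0.72 (0.50 to 0.94). The PBS level of Tdrd6 in round spermatids, 113 CPM, lay between those of EXO and dEXO. In the class between late spermatocytes and round spermatids Mov10l1 was called at 1.55-fold (1.07 to 2.27) where 4.84% of all genes were called higher. With scaling to the median gene the number of calls between dEXO and EXO over all stages was 1.

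In intermediate spermatocytes, where 7 of the 9 members counted were at their highest in EXO and dEXO, none of the 9 was called between dEXO and EXO, where 8% of all genes were. Piwil1 was 0.96-fold (0.88 to 1.03), Piwil2 0.98-fold (0.80 to 1.22) and Ddx4 1.01-fold (0.87 to 1.16). The median log2 ratio of the 9 was -0.26 against 0.02 over all genes, and 7 of the 9 were below 0. Tdrd1 was 0.78-fold (0.67 to 0.90), Tdrd6 0.78-fold (0.68 to 0.89) and Mov10l1 0.78-fold (0.63 to 0.98), while Mael was 1.33-fold (1.15 to 1.56). Within cluster g14, with 28 EXO and 90 dEXO cells, the log2 ratio of Mov10l1 was -1.03 (-1.54 to -0.51) and that of Piwil2 -0.84 (-1.29 to -0.37). Within g10 they were 0.04 (-0.37 to 0.47) and 0.58 (0.15 to 1.03). None of the members counted was called in differentiating spermatogonia, early spermatocytes or late spermatocytes, where 4.80%, 7.07% and 7.55% of all genes were called.

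**Figure D3:**
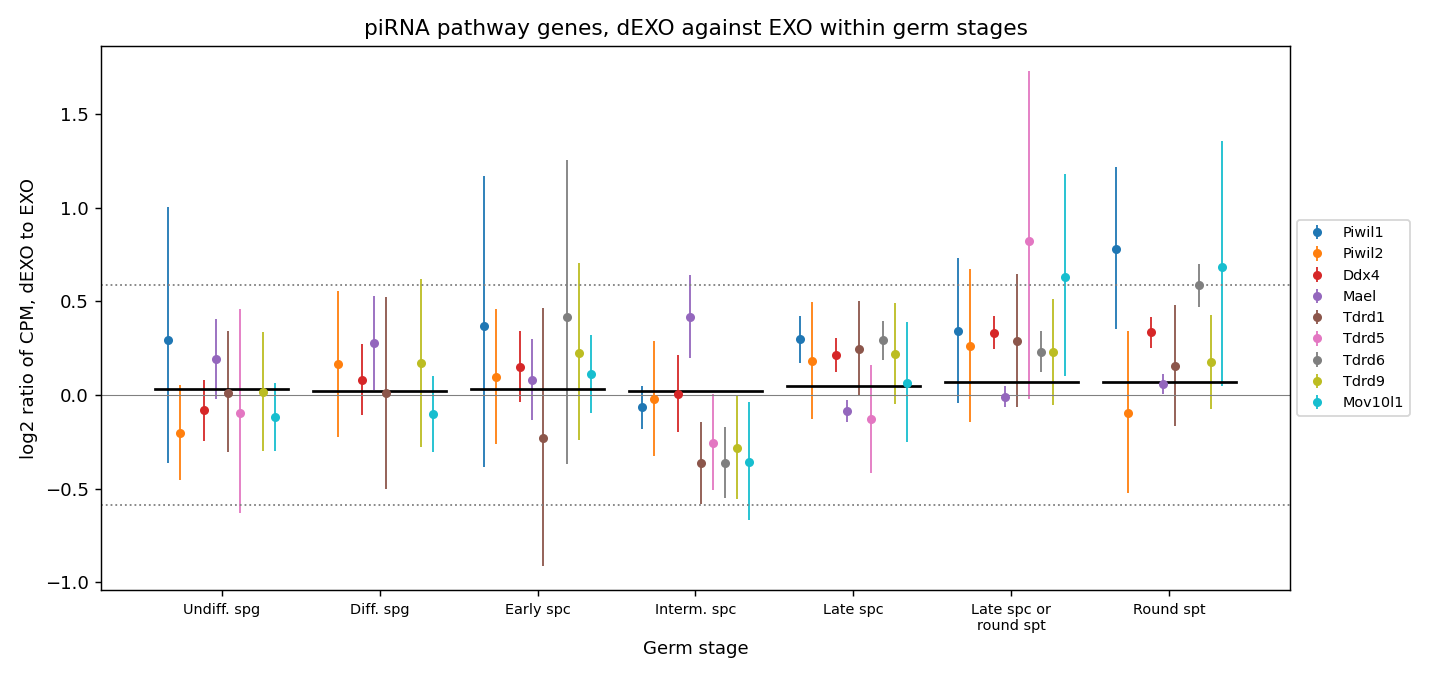
Log2 ratio of CPM in dEXO to EXO for each member counted, by germ stage, with 95% counting intervals; black bars are the median over all genes and dotted lines mark 1.5-fold either way. In intermediate spermatocytes 7 of 9 members lie below 0 and none passes 1.5-fold, and in round spermatids Piwil1, Tdrd6 and Mov10l1 lie at or above it.

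Among the other 22 pathway genes, 6 of 182 combinations of gene and stage were called over the 3 comparisons, all higher in dEXO than in EXO and none against PBS. They were Fkbp6 (1.88-fold, 1.33 to 2.73) and Wdr77 (1.95-fold, 1.12 to 3.63) in intermediate spermatocytes, Prmt5 (1.68-fold, 1.24 to 2.33) and Tex15 (2.89-fold, 1.95 to 4.45) in late spermatocytes, Exd1 (1.79-fold, 1.10 to 3.01) in the class between late spermatocytes and round spermatids, and Gpat2 (1.72-fold, 1.13 to 2.66) in round spermatids. Prmt5 and Wdr77 form the enzyme that methylates PIWI proteins for binding by Tudor domains. Calls in intermediate spermatocytes were made for 3.99% of all genes in this direction, in late spermatocytes for 6.20%, in the class after them for 4.84% and in round spermatids for 5.80%.

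Outside the germ line the summed level of the 10 members in Leydig cells was 10.7 CPM in PBS, 29.8 in EXO and 73.6 in dEXO, with all 10 detected in each library. Ldhc, a transcript of meiotic and haploid germ cells, moved alongside at 22.0, 57.9 and 175 CPM. A member UMI was found in 29.7%, 40.4% and 62.7% of Leydig cells, and in 1.5%, 2.95% and 6.64% after thinning to 1000 UMIs, with 2, 5 and 3 shallower cells left out. Ddx4 in Leydig cells was 2.76-fold higher in EXO (2.12 to 3.62) and 7.41-fold higher in dEXO (5.85 to 9.48) than in PBS, close to the 2.63-fold and 7.97-fold of Ldhc. The summed members, Ddx4 and Ldhc thus had the same order of libraries. Free RNA and doublets that the caller did not find cannot be told apart here, and their part in these counts was not tested.

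Members differed in how closely they moved with Ldhc, and 3 cases, picked out after the values had been seen, are described here. Tdrd1 in Sertoli cells was at 40.4, 52.3 and 55.9 CPM, on 54, 118 and 279 UMIs. Leydig cells had 0.23, 1.51 and 3.63 CPM, so Sertoli cells stood above them in each library. The Sertoli level was 1.30-fold in EXO (0.93 to 1.82) and 1.39-fold in dEXO (1.03 to 1.89) relative to PBS, whereas Ldhc in the same cells was 2.88-fold and 7.28-fold. Among the other members in Sertoli cells, Piwil1 and Tdrd6 moved more than Ldhc between PBS and dEXO. Piwil1 was at 3.74, 19.5 and 43.9 CPM and Tdrd6 at 1.49, 4.43 and 33.1 CPM, on 5 and 2 UMIs in PBS. Ddx4, Piwil2 and Tdrd9 moved less. Ddx4 was 3.02-fold (1.88 to 5.08) and 3.62-fold (2.32 to 5.93), Piwil2 was at 11.2, 17.3 and 25.1 CPM, and Tdrd9 was at 10.5, 22.2 and 23.1 CPM. Tdrd1 UMIs per 100 Ldhc UMIs were 39.1, 17.6 and 7.45 in Sertoli cells and 1.04, 2.60 and 2.07 in Leydig cells. After thinning, 5.56%, 4.83% and 4.46% of Sertoli cells and 0, 0.17% and 0 of Leydig cells had a Tdrd1 UMI, with 9, 27 and 100 shallower Sertoli cells left out. Unthinned shares were 35.8%, 29.5% and 29.4% in Sertoli cells and 0.82%, 2.88% and 5.22% in Leydig cells. Among the other pathway genes Fkbp6 was at 171, 210 and 207 CPM in Sertoli cells and at 2.08, 1.89 and 4.58 CPM in Leydig cells. Mybl1 was at 48.6, 52.8 and 51.9 CPM in Sertoli cells and at 1.00, 1.54 and 2.31 CPM in Leydig cells.

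Piwil4 in Leydig cells was the second case, at 3.20, 3.79 and 3.74 CPM on 154, 128 and 102 UMIs. Its ratio to PBS was 1.18 in EXO (0.93 to 1.51) and 1.17 in dEXO (0.90 to 1.51). Stromal cells had 1.13, 1.48 and 2.42 CPM. Most Leydig cells of PBS were in cluster c1 (1154 of 1339) and most of dEXO in c2 (1409 of 1781). Within c1 Piwil4 was at 3.41, 3.82 and 5.16 CPM and within c2 at 1.51, 3.73 and 3.25 CPM. In both clusters the dEXO level was thus above that of PBS, although the intervals overlapped. In c1 they were 2.88 to 4.01 in PBS and 3.62 to 7.15 in dEXO, and in c2 0.65 to 2.98 and 2.51 to 4.13. The near-equal levels over all Leydig cells therefore mix clusters in different shares. The antisense gene Gm10706 and a pseudogene overlap Piwil4 on the other strand, and their reads cannot be told apart from it without strand.

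Tdrd9 in the T cell cluster c20 was the third case. Cluster c20 was led by Trdc, Cd163l1 and Cxcr6 among others and held 58, 67 and 73 cells. Tdrd9 was at 24.9, 32.5 and 21.2 CPM there, on 10, 11 and 6 UMIs in 7, 8 and 5 cells. The larger T or NK cluster c9 had 0, 3.14 and 12.5 CPM although its Ldhc level, at 110, 334 and 902 CPM, was above the 74.6, 133 and 446 CPM of c20. Over all libraries Tdrd9 was 6.23-fold higher in c20 than in c9 (3.20 to 12.6), but in dEXO alone the ratio was 1.70 (0.52 to 5.01) and did not exceed counting error.

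**Figure D4:**
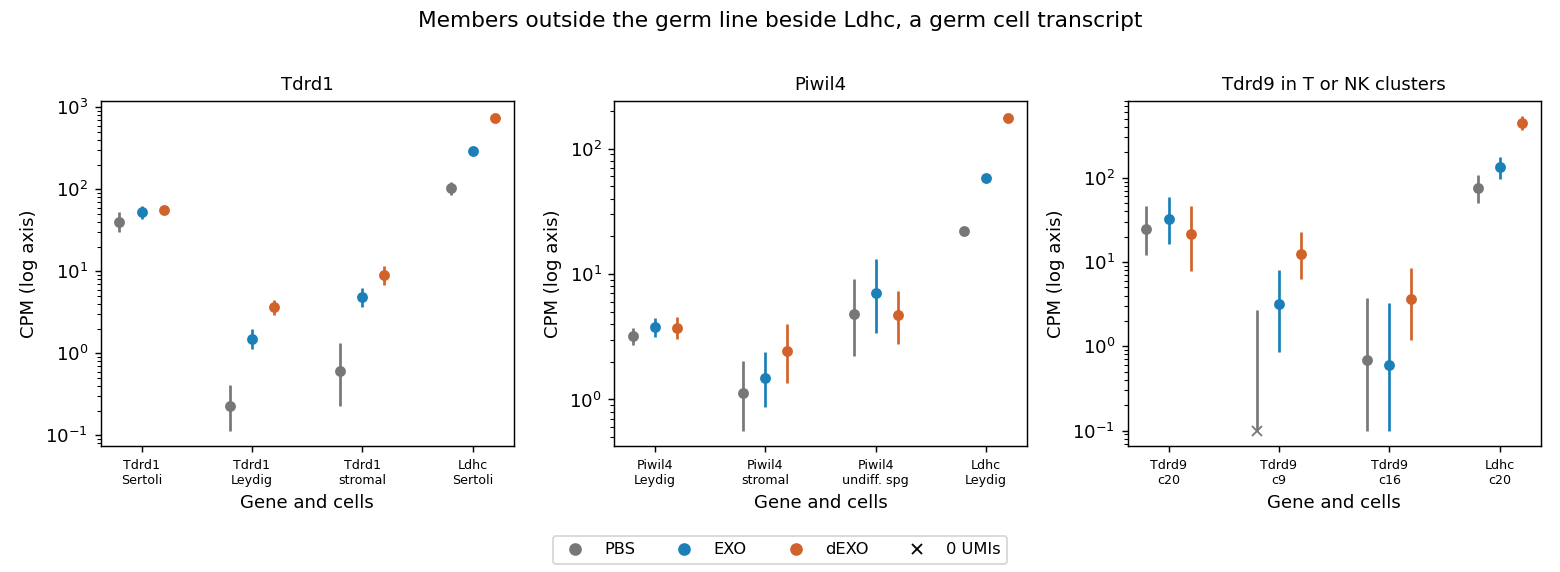
CPM (log axis) with 95% Poisson intervals of Tdrd1, Piwil4 and Tdrd9 in somatic classes or clusters of the 3 libraries, beside Ldhc in the same cells; crosses are 0 UMIs. Ldhc is higher in dEXO than in PBS in each panel, for example from 22.0 to 175 CPM in Leydig cells. Piwil4 over all Leydig cells lies between 3.20 and 3.79 CPM, while within each Leydig cluster its dEXO level is above that of PBS, with overlapping intervals.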

How the data were processed

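The deposited files hold UMI counts per gene and cell, made by the authors with Cell Ranger 5.0.1 per the file headers. Cell Ranger, Seurat and GRCm38 are named in the submitters' processing notes. No source used here states how strand was handled in counting. Cells under 500 UMIs or 300 genes, or with over 20% mitochondrial UMIs, were removed. Scrublet called 4, 2 and 0 doublets in PBS, EXO and dEXO, too few to have worked. In scanpy 1.11.5 the 2000 most variable genes, without the 10 members and 22 other pathway genes, gave 30 principal components, 15 neighbours and Leiden clusters at resolution 1 (leidenalg 0.10.2), with germ clusters clustered again. Classes were named from markers by a rule written after the clusters had been seen.

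UMIs were summed per library and class and scaled to CPM. Levels carry exact Poisson intervals, shares exact Clopper-Pearson intervals and ratios exact conditional binomial intervals, all at 95% (scipy 1.17.1). They cover counting error only, and a count of 0 is given an upper limit of 3 counts. Library comparisons used stages with at least 50 cells in both libraries and genes with at least 50 UMIs over both. UMIs of this chemistry come from the 3' end, so levels were not scaled to gene length and are compared within a gene. The calculations were tested on simulated data.

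The members and lists were chosen with earlier results of these data known. All 10 members are described. Of the other pathway genes, those called and the 3 with the highest CPM in any germ stage are named by rule, and Tdrd12, Pld6, Exd1, Mybl1 and others beside them were named for their calls or after their values were seen. Genes like a member are the 2 with the highest r among named genes of at least 200 UMIs. Alternatives covered clustering genes and resolution, doublets, mitochondrial limit, depth, cell weighting, scaling, fold and UMI limits.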

Additional observations from a re-analysis of the deposited data

How the results depend on the processing

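With 1 library per group no replicate could be left out. No paired analysis was possible because each group has 1 library. The call counts of members for EXO against PBS, dEXO against PBS and dEXO against EXO, which were 2, 5 and 4, became 9, 11 and 11 at Leiden resolution 2. They became 0, 2 and 0 with a 2-fold limit, and 0, 1 and 2 with at least 200 UMIs. Thinning to 1000 UMIs gave 0 for both comparisons with PBS, and leaving out germ clusters under a median of 2000 UMIs, an alternative added after seeing the data, gave 0 and 1. For dEXO against EXO, scaling by the median gene gave 1 and removing the highest doublet scores gave 2. Shares of all genes called under the alternatives are not given here, so these changes cannot be set apart from those of all genes. The 6 calls of other pathway genes became 1 at 2-fold and 3 with at least 200 UMIs. Leydig cells with a member UMI were 1.5%, 2.95% and 6.64% after thinning. The counts of stage steps were also tried under the alternatives after seeing the data. Of 9 members, 2 in EXO and 3 in dEXO were higher in intermediate than in early spermatocytes with at most 10% mitochondrial UMIs, and 5 in dEXO at resolution 2. After thinning 5 of 6 were higher in EXO, and 3 of 5 were lower in late spermatocytes. The other 67 counts stayed within 1.5 times, no value reversed, and the reasons for the changes were not tested. Among single values 95 moved by more than their counting interval and 736 did not. Piwil4 and the low levels in round spermatids rest on few UMIs, which limits their precision.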
